A study of Homo sapiens with 39 samples.

Results

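The 10 genes described here encode immediate-early and AP-1 transcription factors, or products induced with them: FOS, FOSB, FOSL1, JUN, JUNB, JUND, EGR1, ATF3, IER3 and MYC. They were picked by symbol, with earlier results of these data known, as the genes of the expression table that carry these names, and all 10 were found among the 20802 genes of the panel, each read by 1 amplicon. The samples were HepaRG cells, an established human hepatic cell line that differentiates into hepatocyte-like cells and keeps much of their metabolism. Cells received a test chemical or its vehicle on 3 successive days and were detached with TrypLE 7 h after the last addition, at 55 h of exposure. The 10 chemicals at 3 concentrations each gave 30 treated libraries, and 9 vehicle controls (4 with DMSO, 4 with media, 1 with water) completed the 39, each made from the pooled RNA of 3 cultures of 1 condition, so that no condition has a replicate library.

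The DNA damage-inducing (DDI) chemicals were aflatoxin B1 (AFB1; 0.25, 1 and 2.5 µM), 2-nitrofluorene (2NF; 10, 50 and 250 µM), cisplatin (CISP; 2, 5 and 10 µM) and etoposide (ETP; 0.5, 2.5 and 10 µM), all in DMSO, and methyl methanesulfonate (MMS; 50, 100 and 200 µM), in water. The non-DDI chemicals were colchicine (COL; 0.05, 0.1 and 0.3 µM), in DMSO and with the same control library as AFB1, and 2-deoxy-D-glucose (2DG; 1.25, 5 and 10 mM), sodium ascorbate (ASC; 1, 2 and 10 mM), ampicillin trihydrate (AMP; 1, 3 and 10 mM) and sodium chloride (NaCl; 1, 2.5 and 10 mM), in media. The 3 concentrations of a chemical are called low, mid and high. COL binds tubulin and is given separately below, because it disturbs chromosome segregation without reacting with DNA.

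Immediate-early genes are transcribed from pre-assembled promoters within minutes of a growth factor, cytokine, mechanical or stress signal, and their transcripts are short-lived. AP-1 is a dimer of a FOS-family protein (FOS, FOSB, FOSL1) with a JUN-family protein (JUN, JUNB, JUND), or of JUN proteins with each other or with ATF proteins such as ATF3, and it binds promoters and enhancers of growth, matrix and inflammatory genes. In liver the family is known from regeneration and from the response of hepatocytes to isolation and injury, and JUND is known as the member with steady expression in resting cells.

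The 39 libraries held 8504699 to 16425527 counts, each a read of an amplicon. One amplicon reads each gene, so levels are compared between libraries for 1 gene and never between genes. Levels are in RPM, reads per 1000000 reads of the library. JUN was barely read: it had 0 to 16 counts per library (median 5), and in the ASC control it had 0, which allows a level of up to 0.183 RPM (3 counts). The other 9 members had at least 41 counts in every library. Their counting error was small beside the differences below, the lowest being FOSB in the CISP low library at 3.02 RPM (46 counts, exact 95% binomial interval 2.21 to 4.03). Intervals and limits of this kind cover counting error only.

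The hepatocyte label was checked on 10 markers, whose summed level ran from 25902 to 50358 RPM in the controls, with albumin (ALB) at 14020 to 33206. SERPINA1, an abundant hepatocyte transcript, was read at only 10.9 to 21.3 RPM in controls. Of 6 cholangiocyte markers on the panel, KRT7, EPCAM and CFTR were at or near 0, whereas KRT19 ran from 397 to 1314 RPM in controls. PTPRC, CD3E, HBB and VWF, markers of blood and vessel cells, were at or near 0 in the controls, as was COL1A2, and CD68, COL1A1 and PECAM1 stood at 72.3 to 103, 19.2 to 52.0 and 2.72 to 18.7 RPM. In pooled bulk RNA, fewer cells of a type and less RNA per cell cannot be told apart.

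FOSB and ATF3 were among the genes that differed most between vehicle controls. FOSB, a FOS-family partner of JUN proteins, stood at 66.0 RPM in the MMS control, 47.3 in the 2DG control and 35.1 in the control shared by AFB1 and COL, but between 3.53 and 5.84 in the other 6 controls, an 18.7-fold range with no level in between. ATF3, a stress-induced member of the ATF/CREB family, was highest in the same 3 libraries, at 76.2, 67.2 and 52.9 RPM, against 10.2 to 30.6 in the other 6. FOS, the founding member of the family, followed with 349, 379 and 381 RPM in these 3 libraries and 150 to 215 RPM in the rest, without overlap.

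JUNB, a JUN-family protein that often opposes JUN, was also highest in these 3 controls (650 to 727 RPM against 358 to 562). FOSL1, which encodes the FOS-family protein Fra-1, was at 41.2 and 38.8 RPM in the MMS and 2DG controls and at 9.74 to 19.2 in the other 7. On the log2(RPM + 1) scale the range over the 9 controls was wider in FOSB than in 99.96% of the 13812 genes tested, and in ATF3, IER3 and FOSL1 wider than in 99.8%, 98.9% and 97.98%. The range of JUND, at 57.2 to 78.8 RPM, was wider than that of only 16.2% of genes. The 3 controls high in FOSB and ATF3 were in water, media and DMSO, 1 each. Between the 4 DMSO and the 4 media controls no member passed an adjusted p of 0.05 (edgeR quasi-likelihood test, 0 of 9 tested, 0 at an unadjusted p under 0.05, and 0 on both counts by DESeq2), where 1.66% of genes were higher and 3.68% lower in DMSO.

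**Figure D1:**
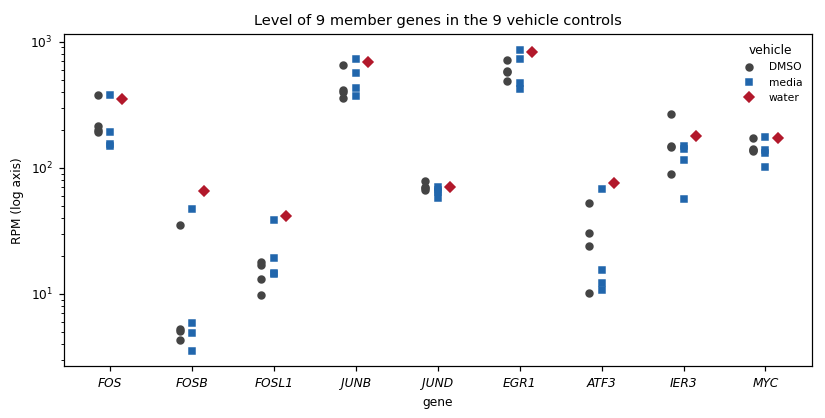
Level of the 9 readable members (JUN left out) in each of the 9 vehicle controls, in RPM on a log axis, with 1 point per library (circles DMSO, squares media, diamond water). FOSB falls into 3 libraries at 35.1 to 66.0 RPM and 6 at 3.53 to 5.84 RPM, whereas JUND stays within 57.2 to 78.8 RPM.

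The level in every treated library was divided by that of its own control, as a log2 ratio of RPM + 1, and ratios past 2-fold were counted, with no test because each condition is 1 library. Over the 300 pairs of a member and a condition, 41 were past 2-fold higher and 16 were past 2-fold lower. Of all pairs of the 13812 genes tested and a condition, 1.55% were past 2-fold higher and 1.6% lower. These shares, and those of all genes below, are over the genes tested and were not matched to the members for level. The counts were 12 of 150 higher in the DDI conditions (1.61% of all genes), 7 of 30 in the COL conditions (2.09%) and 22 of 120 in the other non-DDI conditions (1.35%). The counts lower were 11 of 150 (2.34%), 2 of 30 (2.01%) and 3 of 120 (0.582%). Among single chemicals, 2NF held 9 of 30 pairs past 2-fold higher (2.56% of all genes) and MMS held 9 of 30 lower (4.31%). FOSB and ATF3, the members with the most uneven controls, supplied 22 of the 41 higher and 8 of the 16 lower pairs.

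Set against the range of all 9 controls in place of the matched one, an alternative added after the data were seen, 13 of the 41 higher pairs lay above every control and 6 of the 16 lower pairs lay below every control. By that measure alone 50 of 300 pairs lay above the controls, where 12.7% of all pairs did, and 11 lay below, where 11.6% did. The split by class ran the other way from the 2-fold counts: 33 of 150 pairs lay above in the DDI conditions (15% of all genes) and 5 of 120 in the other non-DDI conditions (9.98%), and 8 (12.2%) and 1 (10.4%) lay below. Of the 33 pairs MYC supplied 10 and JUN, which was barely read, 7. This measure pools controls of all vehicles. The DDI chemicals were in DMSO or water and these other non-DDI chemicals in media, so class and vehicle cannot be told apart in it. COL held 12 of its 30 pairs above (12.5%) and 2 below (12.8%), and all 7 of its pairs past 2-fold higher were among them. MMS held 5 of 30 below (15.3%), and 3 of its 9 pairs past 2-fold lower lay below every control. For 2NF, 2 of its 9 pairs past 2-fold higher lay above every control.

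**Figure D2:**
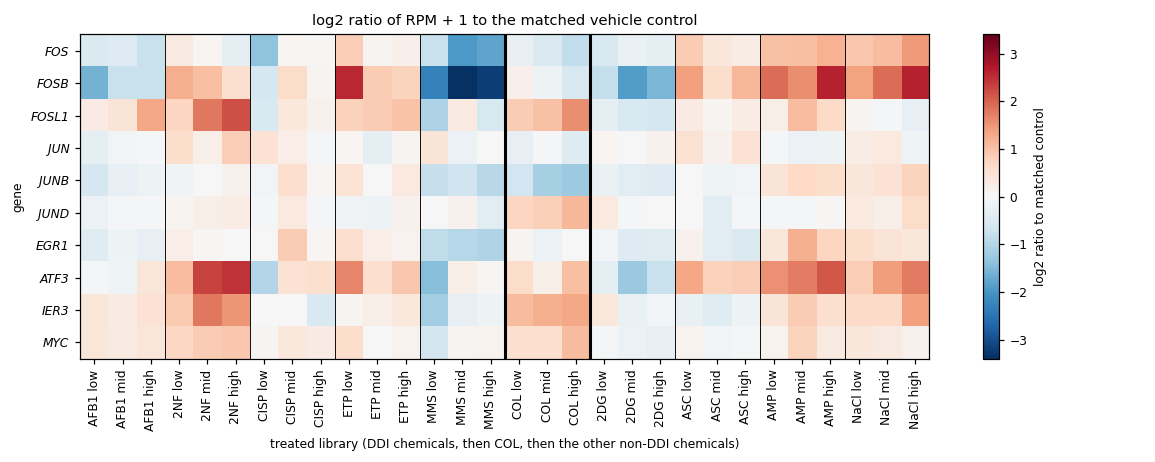
log2 ratio of RPM + 1 of each member (rows) to its matched vehicle control in the 30 treated libraries (columns, by chemical and concentration), red for higher and blue for lower in the treated library, with thick lines on both sides of COL. The FOSB row runs from -3.36 in MMS mid to 2.62 in AMP high, and JUND is red in the 3 COL libraries, at 0.74, 0.82 and 1.13.

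For each chemical a dose trend was fitted to the counts with edgeR, as the log2 slope per step from control to low, mid and high, with each control and the libraries matched to it as a block, and p-values adjusted over all 13812 genes. All trends share 1 estimate of the spread, taken from the scatter of libraries around their lines, and the 3 concentrations of a chemical lean on 1 control. Over the 10 chemicals 12 trends of members passed an adjusted p of 0.05, in MMS, 2NF and COL.

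In MMS, an alkylating agent, 4 of the 10 members fell, FOS, FOSB, EGR1 and JUNB, and none rose, where 10.4% of all genes fell and 5.1% rose. FOS was at 349 RPM in the MMS control and at 208, 90.3 and 100 RPM at low, mid and high. The mid and high values lay below all 9 controls, and the slope was -0.69 ± 0.15 per step (SE, adjusted p = 0.0022). FOSB went from 66.0 RPM to 12.6, 5.54 and 6.32 (slope -1.26 ± 0.29, adjusted p = 0.0035). Its treated values lay at or above the level of the 6 low controls, and its own control was the highest of the 9.

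EGR1, a zinc-finger factor induced by serum response factor and ERK signalling, went from 829.1 RPM to 452, 422 and 411 (slope -0.36 ± 0.11, adjusted p = 0.027), the last 2 below every control. JUNB went from 692 RPM to 402, 436 and 359 (slope -0.32 ± 0.085, adjusted p = 0.012). Its treated values stayed within the range of the controls. In FOSB, EGR1 and JUNB the drop lay mostly between the control and the low concentration. In a fit on the treated libraries only, none of the 4 slopes passed (FOS -0.56, adjusted p = 0.20, and EGR1 -0.095, adjusted p = 0.90).

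With 1 intercept for all 39 libraries, another alternative added after the data were seen, FOS (-0.58, adjusted p = 0.00081), EGR1 (-0.33, adjusted p = 0.0030) and JUNB (-0.21, adjusted p = 0.038) passed and FOSB did not (-0.70, adjusted p = 0.10). FOSB did not pass without the mid concentrations (adjusted p = 0.056), nor JUNB without the high ones (adjusted p = 0.085). ATF3 in MMS was uneven, at 76.2 RPM in the control, 27.4 at low, 88.3 at mid and 78.7 at high, and FOSL1 went from 41.2 to 19.3, 50.8 and 28.2 RPM. Neither trend passed (slopes 0.090 ± 0.20 and -0.072 ± 0.14). The hepatocyte markers moved in the same libraries: 7 of 10 fell, and their summed level was 27898 RPM in the control, then 21408, 4461 and 8243 RPM. Their part in the result was not tested.

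The promoters of FOS, FOSB and EGR1, which fell together in MMS, are shown because each holds the core of the cAMP response element, the site through which CREB and ATF proteins act on immediate-early genes. RefSeq promoter sequences (GRCh38.p14) matched 7 of the 10 members by symbol, and none were found for FOSL1, IER3 and MYC. The 250 bases before each start were searched on both strands for the half-site TGACGT, for the full element TGACGTCA (which contains the half-site), for the AP-1 site TGANTCA and for the serum response element core, and 200 of those bases are printed. Capitals mark every match, and a match written ACGTCA is the half-site on the other strand.
FOS, chr14:75278628-75278827, plus strand: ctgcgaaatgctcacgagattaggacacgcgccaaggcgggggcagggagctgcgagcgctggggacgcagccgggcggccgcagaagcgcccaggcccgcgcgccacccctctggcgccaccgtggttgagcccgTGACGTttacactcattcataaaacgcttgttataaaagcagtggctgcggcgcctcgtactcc
FOSB, chr19:45467796-45467995, plus strand: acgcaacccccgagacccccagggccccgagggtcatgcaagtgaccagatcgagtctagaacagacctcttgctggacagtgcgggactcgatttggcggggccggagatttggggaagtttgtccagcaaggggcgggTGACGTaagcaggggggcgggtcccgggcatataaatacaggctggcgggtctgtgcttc
EGR1, chr5:138465279-138465478, plus strand: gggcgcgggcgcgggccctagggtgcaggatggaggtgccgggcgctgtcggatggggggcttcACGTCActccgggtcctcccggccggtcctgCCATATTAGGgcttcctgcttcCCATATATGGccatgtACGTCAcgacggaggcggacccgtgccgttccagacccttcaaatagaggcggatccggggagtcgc
The half-site began at -64 in FOS, at -60 in FOSB and at -136 and -67 in EGR1, counted from the annotated start, and EGR1 also held the serum response element core at -105 and -83. Of all 35116 promoters in the table, 7.10% held the half-site in the same window, 1.16% the serum response element core, 1.65% the full element and 6.57% the AP-1 site. JUNB, which fell with these 3 genes, held none of the 4 motifs in its window, nor did JUN or ATF3. A match describes letters in a window and says nothing about binding, and a motif further upstream would not have been found.

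**Figure D3:**
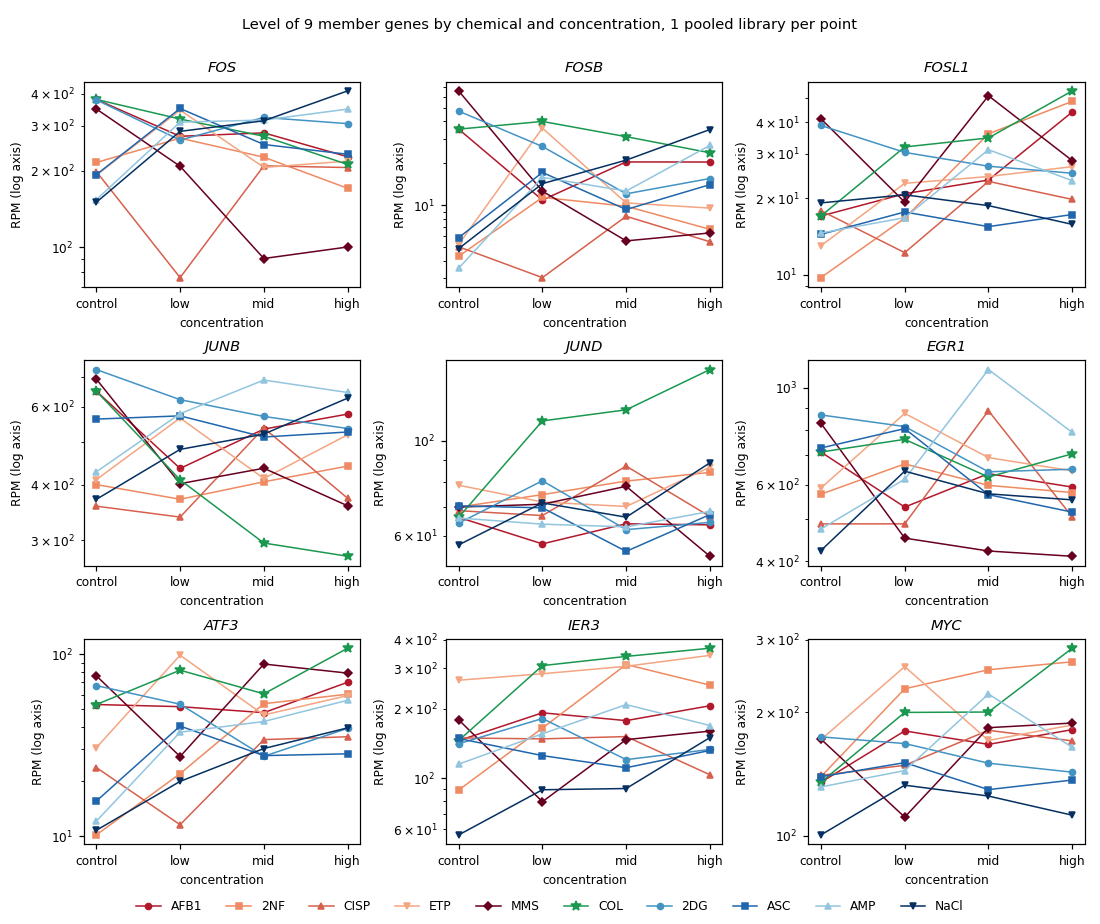
Level of 9 members (1 panel each, JUN left out) in RPM on a log axis whose range differs between panels, from the matched control through low, mid and high, with 1 line per chemical and 1 library per point. MMS ends lowest in FOS (100 RPM) and EGR1 (411 RPM), COL ends highest in JUND (146 RPM) and lowest in JUNB (276 RPM), and AFB1 and COL start from the same control.

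In 2NF, a nitroarene, 3 of the 10 members rose, FOSL1, ATF3 and IER3, and none fell, where 4.3% of all genes rose and 4.45% fell. FOSL1 was at 9.74 RPM in the control and at 16.7, 36.0 and 48.3 RPM at low, mid and high (slope 0.78 ± 0.15, adjusted p = 0.00069). It rose at every step, and the control was the lowest of the 9. ATF3 was at 10.2 RPM in the control, again the lowest of all, and at 22.1, 53.5 and 60.3 RPM (slope 0.87 ± 0.24, adjusted p = 0.022). These treated values lay within the range of the other controls. IER3, an early response gene that acts on ERK signalling and cell survival, went from 88.9 RPM to 165, 312 and 254 RPM (slope 0.54 ± 0.14, adjusted p = 0.015).

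The IER3 mid value was above every control. MYC, the growth-promoting factor, was at 139 RPM in the control and at 228, 253 and 265 RPM, all 3 above every control, with a slope that did not pass (0.27 ± 0.10, adjusted p = 0.11). With 1 intercept for all libraries the MYC slope passed (0.30, adjusted p = 0.0021), FOSL1 passed (0.36, adjusted p = 0.036), and IER3 (adjusted p = 0.071) and ATF3 (0.21, adjusted p = 0.55) did not. On treated libraries only, none of the 3 trends passed (FOSL1 0.74, adjusted p = 0.22). Without the mid concentrations ATF3 and IER3 did not pass (adjusted p = 0.080 and 0.069), and ATF3 did not without the high ones (adjusted p = 0.16). In 2NF 6 of 10 hepatocyte markers fell, and their sum was 38293 RPM in the control and 31707, 15447 and 14302 RPM in the treated libraries. Their part in the result was not tested.

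In COL 5 of the 10 members passed: JUND, FOSL1, IER3 and MYC rose, where 5.13% of all genes rose, and JUNB fell, where 7.21% fell. JUND, the JUN-family member usually expressed at a steady level, was at 66.3 RPM in the control and at 111, 118 and 146 RPM at low, mid and high. All 3 values lay above the 9 controls and above every other library, whose highest was NaCl high at 88.8 RPM. The slope was 0.36 ± 0.072 (adjusted p = 0.00099). AFB1, measured against the same control, had JUND at 57.5, 64.1 and 63.7 RPM.

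JUNB moved the other way, from 650 RPM to 410, 296 and 276 RPM (slope -0.39 ± 0.080, adjusted p = 0.0014), and its mid and high values were the lowest of the 39 libraries. Its control was the third highest of the 9. IER3 went from 146 RPM to 309, 338 and 367 RPM (slope 0.38 ± 0.13, adjusted p = 0.046), and MYC from 135 RPM to 200, 200 and 286 RPM (slope 0.27 ± 0.089, adjusted p = 0.0495). Every COL value of IER3 and MYC was above all 9 controls. FOSL1 went from 17.0 RPM to 31.9, 34.7 and 53.1 RPM (slope 0.52 ± 0.13, adjusted p = 0.0055), the highest of them the highest in the study.

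ATF3 in COL was at 81.7, 60.6 and 108 RPM against 52.9 in the control, a trend that did not pass (0.29 ± 0.19, adjusted p = 0.42). FOS was at 319, 273 and 211 RPM against 381 RPM in the control (slope -0.27 ± 0.14, adjusted p = 0.26), FOSB at 39.8, 31.0 and 23.8 RPM against 35.1, and EGR1 at 762, 624 and 706 RPM against 712. Neither FOSB (-0.072 ± 0.27) nor EGR1 (-0.017 ± 0.11) had a trend that passed.

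With 1 intercept for all libraries the 5 trends in COL passed and ATF3 joined them (0.57, adjusted p = 0.037), with JUND at 0.39 (adjusted p = 2.1e-07). On the treated libraries only, none of the 5 passed (JUND 0.18, adjusted p = 0.80). Without the high concentrations none passed either (JUND adjusted p = 0.077, JUNB 0.098, IER3 0.25, FOSL1 0.47, MYC 0.76), and IER3 and MYC did not pass without the mid ones (0.10 and 0.075). In COL 7 of 10 hepatocyte markers fell, with a sum of 43974 RPM in the control and 39416, 38006 and 21209 RPM in the treated libraries. Their part in the result was not tested.

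The promoter of JUND is shown because JUND was the member whose trend differed most between COL and the DDI chemicals (below). Of the 7 members with a promoter sequence, JUND also alone held the full cAMP response element in the window searched. That element begins at -200, and a further half-site at -87. Capitals mark the motifs searched above, and the printed strand is the minus strand.
JUND, chr19:18281623-18281822, minus strand: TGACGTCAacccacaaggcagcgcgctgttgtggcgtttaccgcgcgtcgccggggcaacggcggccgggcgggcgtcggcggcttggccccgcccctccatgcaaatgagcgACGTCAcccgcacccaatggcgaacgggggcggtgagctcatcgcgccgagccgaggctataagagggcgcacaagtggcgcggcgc

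The slope of COL was compared with the mean slope of the 5 DDI chemicals in the same fit. JUND was higher by 0.38 ± 0.071 per step (adjusted p = 0.0018), where 1.8% of all genes were higher, and JUNB was lower by 0.35 ± 0.081 (slope difference -0.35, adjusted p = 0.012), where 1.18% were lower. JUNB also fell in MMS, with a slope of -0.32 ± 0.085 near that of COL (-0.39 ± 0.080). Its slopes in the other DDI chemicals ran from -0.036 in AFB1 to 0.089 in CISP. The difference for JUND passed with 1 intercept for all libraries (0.38, adjusted p = 4.9e-07) and that for JUNB did not (-0.23, adjusted p = 0.075). Neither passed without the high concentrations (adjusted p = 0.22 for JUND and 0.40 for JUNB) or on treated libraries only. The other 8 members did not pass this test, and IER3 was the closest (0.28 ± 0.12, adjusted p = 0.29), with a 95% interval that begins at 0.024. COL and AFB1 share their control, so part of the error is common to both sides of this contrast.

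In AFB1, CISP and ETP no member passed. Neither edgeR nor DESeq2 called any, and at an unadjusted p under 0.05 each tool had FOSL1 in AFB1, FOSL1 in ETP and none in CISP. All-gene calls were 2.36% higher and 3.21% lower in AFB1, 0.0796% and 0 in ETP, and 0 in both directions in CISP. FOSL1 in AFB1 went from 17.0 RPM to 20.9, 23.6 and 43.9 RPM (slope 0.35 ± 0.12, adjusted p = 0.11), and only the high value was above every control. FOSB in AFB1 was at 10.9, 20.4 and 20.4 RPM, below its control at 35.1 RPM and above the 6 low controls.

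In ETP, an inhibitor of topoisomerase II, FOS, FOSB, JUNB, EGR1, ATF3 and MYC were highest in the low library. There FOSB was at 35.7 RPM and ATF3 at 98.7 RPM, against 5.22 and 30.6 in the control, and at mid and high FOSB was at 10.4 and 9.52 RPM and ATF3 at 46.4 and 59.3 RPM. IER3 was above all 9 controls in the 3 ETP libraries, at 284, 306 and 342 RPM, but its own control, at 267 RPM, was the highest of the 9, and the slope of 0.12 ± 0.13 had a 95% interval from -0.15 to 0.39. In the CISP low library FOS (75.9 RPM), FOSB (3.02 RPM) and JUNB (338 RPM) were each below the 9 controls, whereas FOS at CISP mid and high was at 209 and 205 RPM against 198 in the control. CISP mid held EGR1 at 886 RPM and JUND at 87.3 RPM, both above every control.

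Among the media-borne non-DDI chemicals, the pairs past 2-fold higher came from AMP, NaCl and, for 3 pairs, ASC, with 0 in 2DG. AMP had 11 of 30 pairs past 2-fold higher (1.62% of all genes) and NaCl had 8 of 30 (0.22%). FOS in the NaCl series was at 150 RPM in the control, the lowest of the 9, and at 285, 314 and 411 RPM, the last the highest of the 39 libraries. FOSB in the same series went from 4.88 RPM to 14.3, 21.0 and 34.9 RPM. In the AMP series FOS went from 154 RPM to 310, 316 and 349 RPM, FOSB from 3.53 RPM to 15.8, 12.6 and 26.8 RPM, and ATF3 from 12.1 RPM to 37.3, 42.7 and 55.8 RPM. The high library held the highest FOS and FOSB of each of the 2 series, but of the 19 AMP and NaCl pairs past 2-fold higher only 2 lay above every control, FOS in NaCl high and EGR1 in AMP mid (1101 RPM against 475 in its control).

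No member's trend in AMP or NaCl passed the adjusted test by edgeR or DESeq2. Over all genes edgeR called 0 in AMP, and 0.0362% higher and 0.00724% lower in NaCl. At an unadjusted p under 0.05, both tools had 6 members in each: ATF3, EGR1, FOS, FOSB, FOSL1 and JUNB in AMP, and ATF3, FOS, FOSB, IER3, JUNB and JUND in NaCl, all with positive slopes. The largest of these was FOSB in NaCl (0.90 ± 0.31, adjusted p = 0.83), and the smallest adjusted p was that of IER3 in NaCl (0.45 ± 0.13, adjusted p = 0.60). In 2DG, whose control was among the 3 highest, FOSB went from 47.3 RPM to 26.3, 12.1 and 15.5 RPM and ATF3 from 67.2 RPM to 53.1, 27.5 and 39.1 RPM. No member passed in 2DG or ASC by either tool, and FOSB in 2DG by edgeR was the only one at an unadjusted p under 0.05. All-gene calls were 0 in 2DG and 0.0145% higher and 0.0434% lower in ASC.

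**Figure D4:**
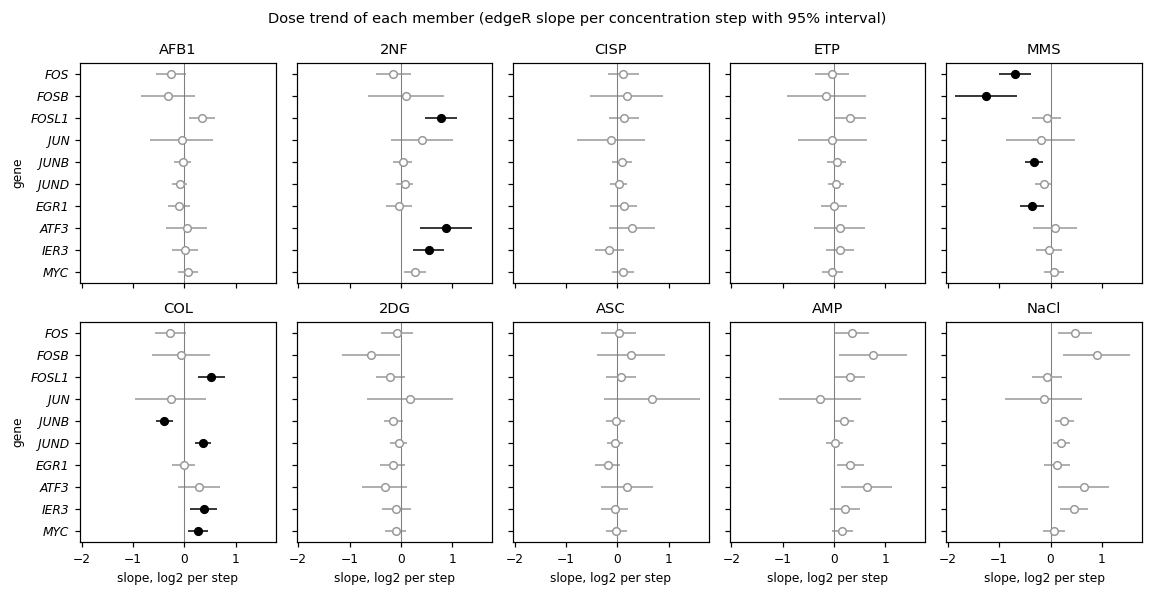
edgeR slope of each member per concentration step on the log2 scale (points) with its 95% interval (bars), 1 panel per chemical, with filled black points for an adjusted p under 0.05 over all genes. Filled points are FOS, FOSB, JUNB and EGR1 in MMS, FOSL1, ATF3 and IER3 in 2NF, and FOSL1, JUNB, JUND, IER3 and MYC in COL.

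Between the 5 DDI chemicals and the 5 non-DDI chemicals no member passed at any concentration. By edgeR 0 members were called at low, mid or high (0 genes at low and mid, and 0.0515% higher in DDI at high), and DESeq2 gave 0 as well. At mid and high JUN did not pass the count filter and was not tested. At an unadjusted p under 0.05 both tools had JUND at low and at high and no member at mid. JUN had too few counts for the comparison of ranges and for the exact test below. The log2 ratios of each other member in the 5 chemicals of one class overlapped those of the other. Of all genes compared 0.208% lay wholly above and 0.138% wholly below in DDI at low, 0.787% and 0.199% at mid, and 0.943% and 0.234% at high. In a two-sided exact permutation test over the 10 chemicals, whose smallest possible p is 0.0079, the lowest p of a member other than JUN was 0.079, for JUND at low. There the log2 ratio averaged -0.050 ± 0.12 (SD, n = 5) for DDI and 0.26 ± 0.32 (SD, n = 5) for non-DDI. Of all genes, 1.31% higher and 1.18% lower in DDI at low were under 0.05 in this exact test, 3.63% and 1.89% at mid, and 4.64% and 1.71% at high.

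At the high concentration the log2 ratio of FOS averaged -0.53 ± 0.79 (SD, n = 5) for DDI and 0.35 ± 0.97 (SD, n = 5) for non-DDI (exact permutation p = 0.16). FOSB was at -0.51 ± 1.61 and 0.85 ± 1.87 (p = 0.25, exact permutation), so that the spread within a class exceeded the difference between classes. With each vehicle's mean control in place of the matched one, FOS was lower in DDI at all 3 concentrations (exact permutation p = 0.032, 0.016 and 0.024), JUND was lower at low (p = 0.032, exact) and FOSB at high (p = 0.032, exact). After adjustment over all genes tested none of these passed (smallest 0.40). The DDI chemicals were in DMSO or water and 4 of the 5 non-DDI chemicals in media, so class and vehicle cannot be told apart here.

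JUN, the founding JUN-family protein, had its highest count, 16, in 2NF high (1.53 RPM, exact 95% binomial interval 0.88 to 2.49), against 4 to 9 counts in the DMSO controls. No trend of JUN passed. JUN was above all 9 controls in 7 of the 15 DDI conditions and 0 of the 15 non-DDI conditions, on 6 to 16 counts. Over all genes the shares above were 15% in DDI, 12.5% in COL and 9.98% in the other non-DDI conditions. In controls JUN was at 0.412 to 0.644 RPM in DMSO, 0.555 in water and 0 to 0.42 in media. The DDI chemicals were in DMSO or water and the non-DDI chemicals other than COL in media, so class and vehicle cannot be told apart in this count. The interval in 2NF high lay above the highest control level (0.644 RPM, 9 counts) but overlapped that control's own interval (0.29 to 1.22 RPM), so that small differences in JUN were not detectable at this depth.

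The rest of the family and its pathway were read from lists chosen with results of these data known. Of 8 other AP-1 family genes tested, 2 rose in COL, FOSL2 and MAFK, and 2 fell in MMS, among them MAF. FOSL2, which encodes Fra-2, went from 41.8 RPM to 79.5, 73.9 and 162 RPM in COL (slope 0.59 ± 0.11, adjusted p = 0.00066). BATF3 rose in AFB1 at a very low level (0.358 to 1.78 RPM). The all-gene shares were 5.13% rising in COL, 10.4% falling in MMS and 2.36% rising in AFB1. The median slope of the 8 genes was 0.19 in COL and -0.064 in MMS, against 0.00090 and -0.0066 over all genes.

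Among 19 other immediate-early genes, 5 fell and 1 rose in MMS, where 10.4% of all genes fell and 5.1% rose. NR4A1, an orphan nuclear receptor, went from 22.4 RPM to 4.43, 1.23 and 1.13 RPM (slope -1.71 ± 0.42, adjusted p = 0.0067), and ZFP36, which destabilises mRNAs, from 664 RPM to 180, 156 and 211 RPM (slope -0.58 ± 0.14, adjusted p = 0.0046). EGR2, CSRNP1 and PHLDA1 fell as well, and BTG2, a p53 target, rose from 86.1 RPM to 161 RPM at high (slope 0.30 ± 0.081, adjusted p = 0.013). In ZFP36 and EGR2 the drop lay mostly between the control and the low concentration, and so rested on the 1 MMS control. The median slope of the 19 was -0.12 in MMS. In 2NF KLF4, KLF6 and PHLDA1 rose (4.3% of all genes), in COL CSRNP1 and KLF6 rose (5.13%), and in AFB1 BTG2 rose (2.36%). None of the 19 passed the comparison of COL with the DDI chemicals, where only 1.8% of all genes were higher and 1.18% lower.

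Of 9 MAP kinase feedback genes, phosphatases and inhibitors that ERK signalling induces, 4 fell in MMS (DUSP4, DUSP5, DUSP6 and DUSP10), 4 rose in 2NF (DUSP4, DUSP6, SPRED2 and SPRY2) and 3 rose in COL (DUSP8, SPRED2 and SPRY2), beside 10.4%, 4.3% and 5.13% of all genes. DUSP5 went from 50.2 RPM to 10.9, 11.6 and 14.4 RPM in MMS (slope -0.64 ± 0.18, adjusted p = 0.015), and SPRED2 from 24.6 RPM to 32.1, 40.0 and 51.6 RPM in COL (slope 0.33 ± 0.062, adjusted p = 0.00065). The drop of DUSP5 lay between the control and the low concentration, and so rested on the MMS control. DUSP8 and SPRY2 were higher in COL than in the DDI chemicals by 0.47 ± 0.066 and 0.38 ± 0.093 per step, where 1.8% of all genes were higher. SPRED2 also rose in AFB1 at the edge of the threshold (adjusted p = 0.04995). The median slope of the list was -0.21 in MMS, 0.30 in 2NF and 0.29 in COL.

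The genes known as AP-1 targets numbered 13 among those tested. In COL 4 rose, among them PLAUR, HBEGF and MMP7, and MMP3 fell, where 5.13% of all genes rose and 7.21% fell. PLAUR, HBEGF and MMP7 also had a steeper slope in COL than in the DDI chemicals (adjusted p = 1.1e-05, 0.0091 and 0.00025), where 1.8% of all genes were higher. PLAUR, the urokinase receptor, went from 16.0 RPM to 27.3, 37.1 and 59.1 RPM in COL (slope 0.61 ± 0.062, adjusted p = 3.9e-07). In 2NF 4 rose, among them AREG, LIF and PLAUR, and MMP3 fell, where 4.3% of all genes rose and 4.45% fell. In AFB1 AREG and LIF rose (2.36% of all genes). In MMS 4 fell (IL8, MMP3, MMP7 and MMP13; 10.4% of all genes), of which IL8, a neutrophil chemokine, went from 259 RPM to 94.0, 70.1 and 78.5 RPM (slope -0.61 ± 0.13, adjusted p = 0.0017). Most of the drop of IL8 lay between the MMS control and the low concentration. The median slope of the list was 0.43 in COL, 0.14 in 2NF and -0.11 in MMS.

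Of 7 genes of the ATF4 and stress response, to which ATF3 belongs, 3 rose in 2NF (PPP1R15A, SESN2 and TRIB3; 4.3% of all genes) and 2 in MMS (ATF4 and TRIB3; 5.1%). ATF4 went from 186 RPM to 206, 546 and 402 RPM in MMS (slope 0.46 ± 0.10, adjusted p = 0.0031). Around MYC, of 8 partners and antagonists MLX fell in MMS, and of 10 target genes LDHA fell and ODC1 rose in MMS. Of all genes 10.4% fell and 5.1% rose in MMS. In COL, where MYC rose, 0 of the 10 target genes passed by edgeR, and their median slope was 0.037. With 5.13% of all genes rising and 7.21% falling in COL, a list of 10 is too short to set this count apart from those shares.

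By likeness of the log2 ratios over the 30 conditions, among the 11562 genes that never fell below 10 counts, the 3 genes nearest to FOS were FOSB (Pearson r = 0.90), EGR2 (0.88) and C8orf4 (0.87). Those nearest to EGR1 were C8orf4 (0.89), ZFP36 (0.86) and ZC3H12A (0.86), those nearest to ATF3 were BHLHE40 (0.86), CCL20 (0.86) and DUSP5 (0.85), and those nearest to MYC were SNAI2 (0.86), SDC4 (0.84) and KLF6 (0.83). These are descriptions without a test, since conditions of 1 chemical share a control. Over the levels in the 39 libraries the most alike members were IER3 with MYC (r = 0.79), FOSL1 with ATF3 (0.78) and FOS with FOSB (0.78). The lowest value was that of JUNB with JUND (r = -0.37).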

How the data were processed

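The authors pooled the RNA of 3 cultures per condition into 1 AmpliSeq library, and the submitters' processing notes name build hg19. The authors deposited counts per target and RPM, in which the library total is the only scaling; RPM recomputed from the counts differed by at most 0.00054. The members and all gene lists were chosen with earlier results of these data known. The 6 annotation columns were not used. Levels are RPM, and single conditions are log2(RPM + 1) ratios to the matched control, without a test. The deposited counts were fitted with edgeR 4.0.16 (TMM, filterByExpr, quasi-likelihood) in R 4.3.3 and, as an alternative, with DESeq2 1.42.0. Dose trends used all 39 libraries with 1 block per control (20 residual degrees of freedom), and class tests had 8. The SE of a slope is its size divided by the square root of the F statistic of its test. The 95% intervals of slopes use this SE and a t distribution with 20 degrees of freedom, so they can differ slightly from the test. P-values were adjusted by Benjamini-Hochberg over all genes tested. Each library is a pool, so they measure scatter around the fitted lines and not variation between cultures. Class was also tested by exact permutation of chemicals.

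Tested on simulated data with 200 changed genes, the COL trend recovered 97.5% of slopes of 0.5 (13532 genes), the class test at high 49.5% of log2 changes of 1 (13431 genes) and the vehicle test 75% (12976 genes). Beside 195, 99 and 150 changed genes, these tests called 6, 5 and 12 unchanged genes. In each simulation all genes had the same fixed spread, changed genes had expected counts above 50, and controls differed by that spread only. The recovery for members with uneven controls, such as FOSB and ATF3, was not simulated and cannot be read from these shares. Alternatives were other normalizations, no filter, DESeq2, other controls, a pseudocount of 0.1, concentration divided by the highest, treated libraries only, and leaving out concentrations, chemicals or controls. Named were all members, up to 4 genes per list with the largest mean change over the DDI chemicals at high (median of at least 50 counts), and the 3 genes most like FOS, EGR1, ATF3 and MYC (JUN had too few counts for this); other list genes were named after their values were seen. Values of 2 list genes are not reported here. Promoter sequences are from RefSeq. Binomial intervals are exact (Clopper-Pearson).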

Additional observations from a re-analysis of the deposited data

Results flagged for a closer look

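Single libraries that stood apart from the rest of their group by more than Dixon's criterion were looked for in 90 groups of 4 to 9 values of the members on the log2(RPM + 1) scale, and 6 groups had one, where about 5% are flagged by chance. Among the 4 DMSO controls, the one shared by AFB1 and COL stood apart in FOS (log2 level 8.58, or 381 RPM, against 7.59 to 7.76) and in FOSB (5.17, or 35.1 RPM, against 2.40 to 2.64). The ETP control stood apart in MYC (7.43, or 171 RPM, against 7.09 to 7.14). Among the 5 DDI chemicals at mid, MMS stood apart in FOS with a log2 ratio of -1.94 (the others -0.44 to 0.10) and 2NF in IER3 with 1.80 (the others -0.28 to 0.29). At high, 2NF stood apart in JUN with a ratio of 0.84 (the others -0.075 to 0.087), which rests on 16 counts.

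The trends of COL and the DDI chemicals differed by a test of the difference itself in JUND (0.38 per step higher in COL) and in JUNB (slope difference -0.35 per step). The DDI side is a mean over chemicals, and in one of them, MMS, JUNB also fell (slope -0.32). The AFB1 and COL control that stood apart in FOS and FOSB enters both sides of that contrast, and its JUND level (66.3 RPM) was the lowest of the 4 DMSO controls (the others 68.7 to 78.8), and its JUNB level (650 RPM) was the highest (the others 358 to 411).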

How the results depend on the processing

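The 14 called slopes of members (12 trends, and 2 in COL against DDI) stayed called under other normalizations, no filter and DESeq2, and none changed sign in any alternative run. No member trend was called on the treated libraries only: the 12 trends became 0 (0 each in 2NF, MMS and COL, and 0 in COL against DDI). With concentration scaled to the highest, 4 trends were called (0 in 2NF, 2 in MMS, 2 in COL, 1 in COL against DDI). With 1 intercept for all libraries, chosen after seeing the data, 11 were called, and 1 in COL against DDI. Leaving out each concentration gave 5 to 13 calls (1 to 4 in 2NF, 0 to 5 in COL, 0 to 2 in COL against DDI). Against the mean of all 9 controls the 16 pairs past 2-fold lower became 5. With controls of the same vehicle, the exact class test gave 2, 1 and 2 members at low, mid and high, in place of 0. The cause of these changes was not tested. The treated-only fit holds fewer libraries and no control, and every called slope was smaller in size in it. EGR1 in MMS went from -0.36 to -0.095, IER3 in COL from 0.38 to 0.11 and MYC in COL from 0.27 to 0.24. Class and vehicle counts stayed at 0 in each other alternative run. No paired analysis was possible because each group is 1 library, numbered 1 only as a name; the blocks used are the matched controls. Among the members, depth limits JUN.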

Other observations

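Markers of cells other than hepatocytes moved with some of the chemicals. KRT19, a keratin of bile duct cells, was at 626 RPM in the 2NF control and at 200, 213 and 199 RPM in the 2NF libraries (edgeR slope -0.53 ± 0.12, adjusted p = 0.0036), a drop that was complete at the low concentration. SOX9 fell in 2NF and MMS, and SPP1, which encodes osteopontin, rose in 2NF (38.0 RPM to 101 RPM at high) and fell in MMS and COL (72.3 RPM to 22.3 RPM at high in COL). Of the 3 stromal and vessel markers tested, COL1A1 rose in COL from 19.2 RPM to 46.3 RPM (slope 0.39 ± 0.11, adjusted p = 0.016) and fell in MMS, and PECAM1 fell in MMS. The summed level of the cholangiocyte markers was 465 to 1454 RPM in controls and 298 to 317 RPM in 2NF, below every control.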
